A study of Rattus norvegicus with 6 samples.

Results

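Cultured rat olfactory ensheathing cells (OECs) after long culture were compared with the same kind of cells after short culture. The comparison used 4 of the 6 Affymetrix arrays of the study: 1 OEC Ep and 1 OEC Lp array of type U34A, and 1 OEC Ep and 1 OEC Lp array of type RAE2.0. OEC Ep were primary cultures with fewer than 3 population doublings, kept for 1 week. OEC Lp were primary cultures that had passed more than 50 doublings. Both came from the olfactory nerve layer of both bulbs of Wistar rats at postnatal day 21, carried no introduced gene, and grew with 2 µM forskolin, an activator of adenylyl cyclase, in DMEM that held 3% serum and pituitary extract at 20 µg/ml. A purity above 90% is stated for both. The remaining 2 arrays held TEG3, a clonal line from OECs of 60-day-old rats that carries the large T antigen of SV40; they entered the fit for its estimate of spread. The members of the comparison were 3131 genes measured on both array types and 8411 genes measured above the floor on RAE2.0 alone. Of the latter, 7979 have no U34A probe set; the others have one that was left out by the filters, among them Aspn, Cdh6, Chrd, Csf1r, Cxcl2, Grem1, Myl3, Myog, Omp and Smad7 of the genes named here.

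Ensheathing cells are glia that wrap the axons of olfactory sensory neurons from the nasal lining to the olfactory bulb. They derive from the neural crest, share the transcription factor Sox10 and the surface receptor Ngfr with Schwann cells, and let new olfactory axons enter the brain throughout life, for which they have been used as grafts into injured spinal cord. Cultures of the nerve layer can also hold meningeal fibroblasts, macrophages and microglia, so markers of these cells were followed beside those of the glia.

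Each population contributed 2 RNA pools, each made from 3 cultures, and the labels do not say which pool was on which array or whether the array types carried the same RNA. The replicates may therefore be technical, and p-values measure only the spread between these arrays. With 1 array per population and type, the small number of arrays limits the precision. The arrays of the comparison had 59.1 to 61.8% of probe sets above the floor, the 40th percentile of signal of a type (128.4 on U34A and 168 on RAE2.0), to which lower signals were raised. Probe sets along GAPDH mark RNA degradation by a rising ratio of 3' over 5' signal, which was 1.96 in OEC Ep and 1.52 in OEC Lp on U34A, and 1.02 and 0.981 on RAE2.0. For beta-actin it was 1.84 and 1.42 on U34A and 1.54 and 1.55 on RAE2.0, and the part of these differences on U34A in the results was not tested. In such bulk samples, fewer cells of a type and less RNA per cell cannot be told apart.

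The comparison asks which transcripts set cultures of more than 50 doublings apart from short-term cultures, and the array types served as its replicates. With the array type as a block, limma called 192 genes at a Benjamini-Hochberg adjusted p under 0.05, 6.13% of those tested: 66 were higher in OEC Lp (2.11%) and 126 lower (4.02%). The median change was 6.03-fold among the higher and 6.96-fold among the lower genes, against a median log2 fold of 0.11 over all 3131 genes. No gene with a change below 2.93-fold was called. Of the calls, 61 were above the floor in all 4 arrays, 25 higher and 36 lower in OEC Lp; among them Gja1 and Timp2 rose and Itga1 and Cntf fell. In 130 others at least 1 probe set was at the floor in the dimmer population on at least 1 array type. Their fold is therefore a lower bound, written "at least". Signals raised to the floor do not vary, so the SE and p-values of such genes can understate the spread. The fit rests on all arrays together: among changed genes in OEC Lp against OEC Ep on both array types, none was called when any single OEC Ep or OEC Lp array was left out (409 to 494 genes at an unadjusted p under 0.05), and 41 were called when the 4 OEC arrays were fitted alone, 40 of them among the 192. Those 40 include Calca, Calcb, Postn, Lyz2, S100b, Sox10, Npy, Nefl, Nefm, Reln and Gfra1 among the falls and Tnnt2, Gjb2, Igfbp6, Masp1, Cav1, Msx1, Gja1, Myadm and Nupr1 among the rises. Without the filter on dim probe sets, 1 gene was called of 4581.

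**Figure D1:**
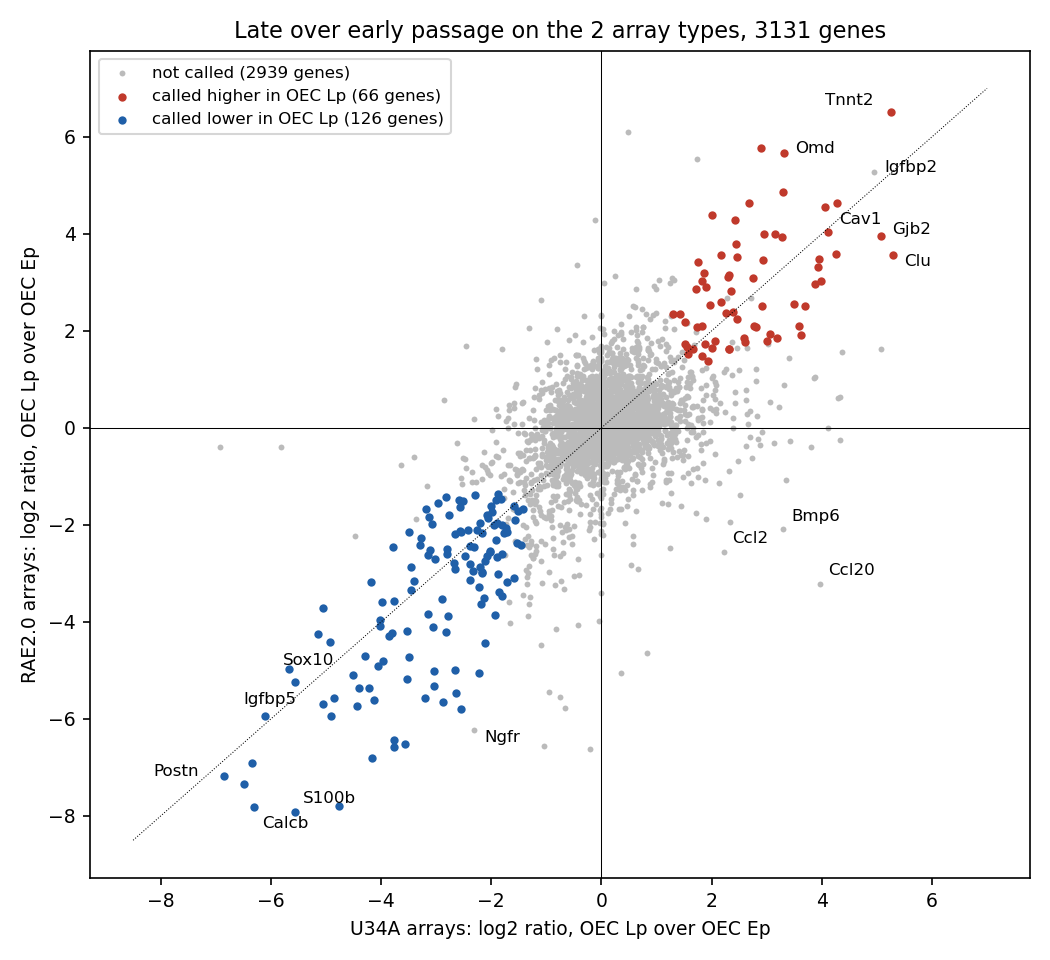
Each point is 1 of 3131 genes, with its log2 ratio of OEC Lp over OEC Ep on U34A (horizontal) and on RAE2.0 (vertical); red and blue points are the 66 genes called higher and the 126 called lower by limma, and the dotted line marks equal ratios. Called genes lie in the 2 quadrants of equal sign, while Ccl2, Ccl20 and Bmp6 lie at the lower right, higher on one type and lower on the other.

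How often U34A gave the direction seen on RAE2.0 depended on the size of the ratio. Among genes with any ratio on RAE2.0 other than 1, U34A had the same direction for 63.9%. Among the 279 genes at least 4-fold apart on RAE2.0 the share was 91.8%, and 72.4% also reached 2-fold on U34A. Among the 71 genes at least 16-fold apart it was 95.8%, with 85.9% reaching 2-fold, and none was 2-fold the opposite way. In all, 342 genes were at least 2-fold apart the same way on both types, 128 higher (4.09%) and 214 lower (6.83%) in OEC Lp, and 27 were at least 2-fold apart in opposite ways. Only 3 genes passed 4-fold in opposite ways. Ccl2, a chemokine for monocytes, went on U34A from 3038 to 14169, while on RAE2.0 it went from 63891 to 10891. Ccl20 went from the floor to 1994 on U34A and from 7593 to 822 on RAE2.0, and Bmp6 from 263 to 2571 and from 1781 to 418. For these genes the array types name different populations as the brighter one, so no direction is given for them.

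**Figure D2:**
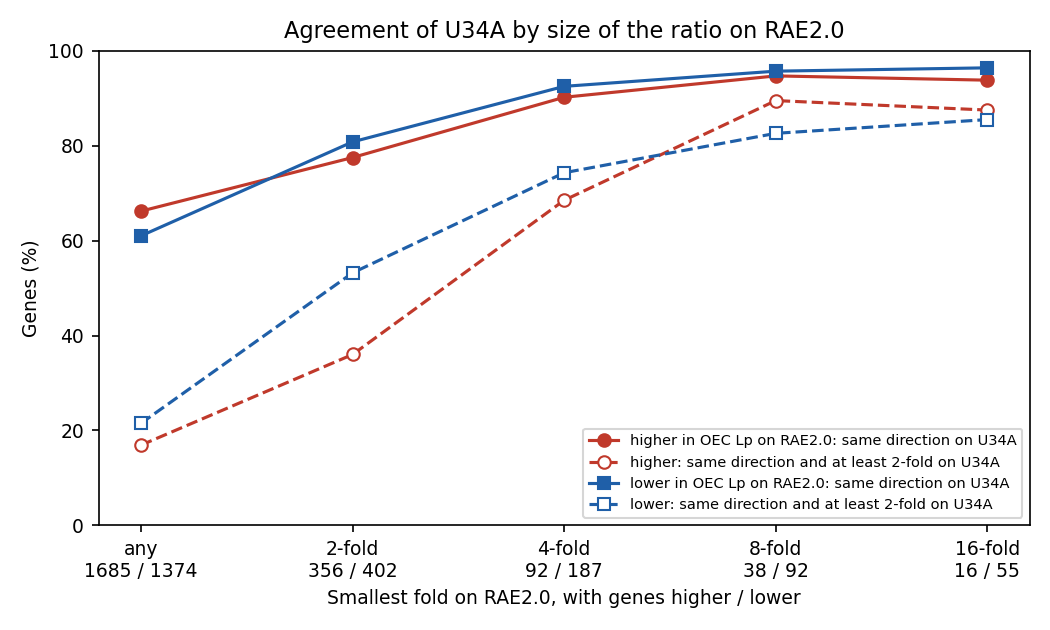
Share of genes (vertical axis, %) for which U34A had the direction of RAE2.0 (solid lines) or the direction and a 2-fold ratio (dashed lines), by the smallest fold on RAE2.0 (horizontal axis, with the number of genes higher / lower in OEC Lp). The solid lines rise from 66.2% and 61.0% for any ratio to 90.2% and 92.5% at 4-fold.

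Several genes that define ensheathing glia fell. Of 21 OEC and Schwann cell markers on both types, 12 fell where 4.02% of all genes did, none rose and 9 were not called, with a median log2 fold of -2.76 against 0.11 over all genes. Sox10, the transcription factor that specifies this lineage, had signals of 2904 on U34A and 5743 on RAE2.0 in OEC Ep, and both OEC Lp arrays were at the floor. With a limma adjusted p of 0.00469, its log2 fold was -4.80 ± 0.335 (SE), a fall of at least 27.8-fold. S100b, a calcium-binding protein by which these glia are stained, had 6119 and 40365 in OEC Ep against 129 and the floor in OEC Lp. Fabp7, the brain fatty acid binding protein of glial progenitors, had 1737 and 15984 in OEC Ep and was at the floor on both OEC Lp arrays. It was at the floor in TEG3 too, so it was measured through OEC Ep alone and could not be higher in OEC Lp. Scn7a, a sodium channel gene of glia of peripheral nerve, had 3840 and 37441 against 142 and the floor. For all 4 genes each OEC Ep array was far above the OEC Lp array of its type. This direction is not particular to them, since all 192 called genes were at least 2-fold apart the same way on both types. Npy, a peptide that OECs make while olfactory axons grow in, went from 2519 and 4514 to the floor and 174 (at least 22.6-fold, adjusted p = 0.00867). Erbb3, the neuregulin receptor of Schwann cell precursors, fell at least 6.71-fold, and Pmp22, a myelin membrane protein, fell 3.92-fold with signals of 649 and 3368 still present in OEC Lp.

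Not every marker of the list moved. Ngfr, the low-affinity neurotrophin receptor, was measured by 2 probe sets on U34A: one went from 25277 to 992, and the other, whose name ends in f, a mark of the array maker for probes that can bind related sequences, went from 6397 to 6651. On RAE2.0 its signal was 12522 in OEC Ep and below the floor in OEC Lp. The gene missed the threshold (log2 fold -4.26 ± 1.06, adjusted p = 0.0912). Without probe sets of that mark, a choice made after the data were seen, it passed (log2 fold -5.45, adjusted p = 0.00892), and over 14 alternatives its adjusted p ran from 0.00892 to 0.827. Gap43, Nrg1 and Nrcam had log2 folds of -0.67, -0.83 and -0.28 and were not called. Aqp1, a water channel, had a log2 fold of 2.46 (adjusted p = 0.119). On RAE2.0 alone 4 of 8 further markers were at least 4-fold lower, where 3.48% of the 8411 genes of that array alone were, and none was 4-fold higher. Gfap, the intermediate filament of OECs and astrocytes, went from 3236 to the floor, and Lgi4, a secreted protein that glia of peripheral nerve need to myelinate, from 3733 to 230. Vim, a filament protein shared by glia and fibroblasts, had 104624 and 90618 in OEC Ep and 80300 and 83847 in OEC Lp (log2 fold -0.25, adjusted p = 0.714).

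**Figure D3:**
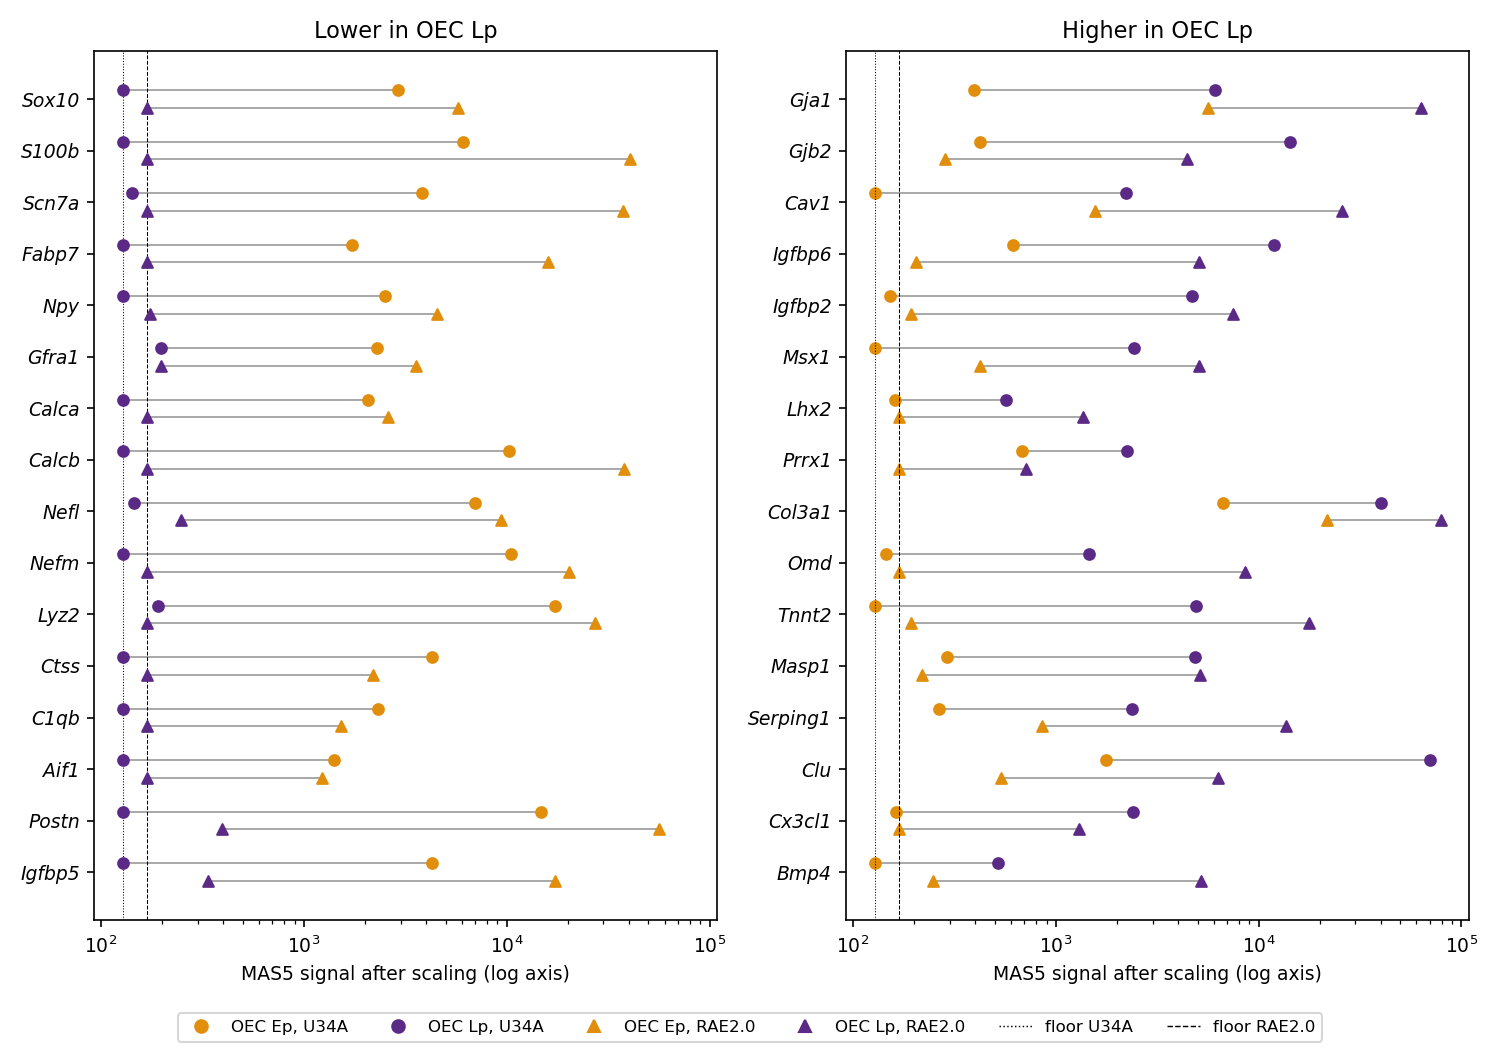
MAS5 signal after scaling (log axis) of 16 genes lower (left) and 16 higher (right) in OEC Lp, with circles for U34A, triangles for RAE2.0, orange for OEC Ep and violet for OEC Lp; each point is 1 array and vertical lines are the floors. In every row both array types have the same direction, and most violet points on the left and many orange points on the right lie at or near a floor; all genes shown were called except Igfbp2 (adjusted p = 0.0529).

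Genes of myelin and its lipids were lower only in part. Of 8 such genes 4 fell, where 4.02% of all genes did, with a median log2 fold of -1.66. Cnp, an enzyme of the cytoplasmic channels of myelin, went from 4952 to 717 on U34A and from 11804 to 802 on RAE2.0 (10.1-fold, adjusted p = 0.0162). Ugt8, which makes galactocerebroside, fell at least 4.09-fold, and Cd9, a tetraspanin of myelin, fell 3.83-fold. Mbp, myelin basic protein, had signals of 412 and 359 in OEC Ep and a log2 fold of -1.37 that was not called (adjusted p = 0.0868). On RAE2.0 alone the membrane glycoprotein gene Gpm6b went from 7425 to the floor. Cldn11, the claudin that seals myelin of the central nervous system and barriers of the meninges, went the other way, from 546 to 37813. Its ratio was 69.2, and both of its probe sets were higher in OEC Lp, from 252 to 20916 and from 1185 to 68360.

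Both genes for calcitonin gene-related peptide, a vasodilator and sensory neuropeptide, fell. Calcb had signals of 10216 and 37715 in OEC Ep and was at the floor on both OEC Lp arrays, the largest fitted fall of a called gene (log2 fold -7.06 ± 0.466, adjusted p = 0.00469, a fall of at least 134-fold). Calca, its neighbour in the genome, went from 2064 and 2596 to the floors (at least 15.8-fold, adjusted p = 0.00484). These and Npy were the 3 called of 17 neuropeptide and hormone genes, where 4.02% of all genes fell. Calcb, and Nefm among the neuron genes, were measured through OEC Ep alone and could not be higher in OEC Lp. Among 16 neuron genes 4 fell, where 4.02% of all genes did, and none rose, with a median log2 fold of -0.40. Nefm and Nefl, the medium and light neurofilament subunits, went from 10486 and 20209 to the floors and from 6981 and 9367 to 146 and 248. Uchl1, a ubiquitin hydrolase abundant in neurons, went from 5755 and 6966 to 272 and the floor, while TEG3 kept 3737 and 3608. Scg3, a granin, fell at least 5.93-fold. The synaptic gene Syp, the axonal gene Gap43 and the RNA-binding gene Elavl4 had log2 folds of -0.19, -0.67 and -0.47 and were not called. Scg2, another granin and also a peptide precursor, went from 139 to the floor on U34A and from the floor to 3276 on RAE2.0, and was not called (log2 fold 2.09, adjusted p = 0.381). On RAE2.0 alone none of 10 further neuron genes was 4-fold apart, and Omp, the marker of mature olfactory neurons, had a log2 ratio of -0.26. The summed signal of the neuron list on U34A was 28165 in OEC Ep and 3593 in OEC Lp, with 3 and 10 of 18 genes at the floor. On RAE2.0 it was 48840 in OEC Ep and 11502 in OEC Lp, with 12 of 26 genes at the floor in each. In OEC Ep these sums hold 10486 and 20209 from Nefm, 6981 and 9367 from Nefl, and 5755 and 6966 from Uchl1. The part of neurons or their RNA in the filament results was not tested.

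Several genes of microglia and macrophages fell as well. Of 17 on both types 9 fell, where 4.02% of all genes did, none rose and 8 were not called, with a median log2 fold of -2.53. Lyz2, the macrophage lysozyme, had 17265 and 27306 in OEC Ep against 192 and the floor in OEC Lp (at least 121-fold, adjusted p = 0.00469). C1qb, a subunit of the first complement component, went from 2320 and 1521 to the floors, and Aif1, the actin-binding protein used to stain microglia, from 1407 and 1223 to the floors. Ctss, a cathepsin of antigen-presenting cells, went from 4282 and 2196 to the floors. Ptprc, the leukocyte antigen CD45, had a log2 fold of -1.47 that was not called (adjusted p = 0.112), from 265 and 694 in OEC Ep. On RAE2.0 alone 14 of 21 further genes were at least 4-fold lower, where 3.48% of the 8411 genes were, and none was 4-fold higher. A gene measured through OEC Ep alone, as Cd68, Tyrobp and Laptm5 were, could not be higher in OEC Lp. The same holds on both types for the called genes Aif1, C1qb, Ctss, Cd53 and Fcgr2b, which were at the floor in OEC Lp and TEG3. The count of falls on both types is therefore in part fixed by the filter. Fcer1g, a signalling chain of antibody receptors, went from 13972 to 316, Itgb2, the integrin chain of leukocytes, from 3723 to the floor, Cd68 from 1481 to the floor and Csf1r, the receptor on which these cells depend, from 1664 to 273. Outside the list, Adgre1, a macrophage surface protein, went from 15812 to the floor.

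The summed signal of the marker list was lower in OEC Lp on both array types, with Lyz2 alone giving 17265 of the sum of OEC Ep on U34A. On U34A its 19 genes summed to a signal of 39320 in OEC Ep, against 5828 in OEC Lp, where 1 gene was at the floor in OEC Ep and 10 were in OEC Lp. On RAE2.0 it was 146705 and 32962 over 38 genes, with none and 26 at the floor. In TEG3, a clonal line, it was 5445 and 19033, with 10 and 26 genes at the floor. The part of macrophages in the falls of other gene groups was not tested. Of the genes named below, Pf4, Ctsc, Ctss, Cd53, C1qa, C1qb, C1qc and Ccl6 are also members of this list.

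Some gap junction and caveola genes rose. Of 8 genes of junctions and caveolae on both types 3 rose and none fell, where 2.11% of all genes rose. Gja1, a connexin of astrocytes, had 397 on U34A and 5649 on RAE2.0 in OEC Ep and 6118 and 63164 in OEC Lp (13.1-fold, log2 fold 3.71 ± 0.483, adjusted p = 0.0162). Gjb2, a connexin of epithelia and meninges, went from 422 and 284 to 14273 and 4411 (22.9-fold, adjusted p = 0.0162). Cav1, the main caveolin, went from the floor and 1557 to 2227 and 25681 (at least 16.9-fold, adjusted p = 0.0101). In each the OEC Lp array was more than 10 times brighter than the OEC Ep array of its type. The other 5, the connexin genes Gja3 and Gja5, Ocln, Tjp1 and Cavin3, were not called, with log2 folds from -0.31 to 1.04. On RAE2.0 alone 4 of 12 were at least 4-fold higher, against 2.02% of the 8411 genes, and none was 4-fold lower: Cldn11, the caveolar coat genes Cav2 (198 to 3400) and Cavin2 (the floor to 3739), and Ehd2 (840 to 3422), an ATPase at the neck of caveolae. In TEG3, Cav1 had 596 and 2806, and OEC Lp against TEG3 gave a log2 fold of 2.55 (adjusted p = 0.0647).

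Some transcription factors that set position or mesenchymal fate in the embryo rose. Of 13 on both types 3 rose, where 2.11% of all genes did, and none fell. Msx1, a homeobox gene of the craniofacial mesenchyme, went from the floor and 425 to 2435 and 5095 (at least 15.1-fold, adjusted p = 0.00879). Lhx2, a LIM homeobox gene of the forebrain and olfactory epithelium, went from 162 and the floor to 570 and 1369 (at least 5.36-fold, adjusted p = 0.0258). Prrx1, a homeobox gene of mesenchyme, went from 680 and the floor to 2255 and 714 (at least 3.75-fold, adjusted p = 0.0316). The rise of Lhx2 starts at or near the floor on both types and that of Prrx1 at the floor on RAE2.0, so their folds are lower bounds. Nr2f1 had the lowest log2 fold, -1.50, and was not called (adjusted p = 0.0868).

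On RAE2.0 alone 9 of 38 positional factors were at least 4-fold higher, where 2.02% of the 8411 genes were, and none was 4-fold lower. Those at the floor in OEC Ep, as Eya1 and Tbx18 were, could not be lower in OEC Lp. Foxp2, a forkhead gene, went from 191 to 8312, Eya1, a factor of the sensory placodes, from the floor to 3755, and Tbx18, a T-box gene of mesothelium and pericytes, from the floor to 2511. Foxc1, which the meninges need to form, went from the floor to 2118 and Prrx2 from 583 to 7233. The other 4 were Six4, Irx3, Zic1 and Eya2, with ratios from 4.32 to 6.57. Outside this list, Tfap2b, an AP-2 factor of neural crest, went from 231 to 5473 over 3 probe sets, and Twist1, a helix-loop-helix factor of mesenchyme, from the floor to 1342. Both are on the list of crest and glial factors. Of its 13 genes on both types, Sox10 and Ets1 (3.25-fold) fell, where 4.02% of all genes did. The other 11 were not called, and the median log2 fold was 0.47. Of 13 further members on RAE2.0 alone, 2 were at least 4-fold higher, Tfap2b and Twist1, and 2 lower. Over the 8411 genes these shares were 2.02% and 3.48%. The 2 lower ones were Zeb2, from 2894 to 590, and Sox2, from 725 to the floor. Many Hox genes sat at the floor in both populations: Hoxa7, Hoxa9, Hoxa10, Hoxb4, Hoxc9 and Hoxd10 had a log2 ratio of 0, and the highest ratio of a Hox gene was a log2 of 1.34 for Hoxb3.

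Meningeal and fibroblast genes went in both directions. Prrx1 and Gjb2 are also on this list. Of 19 on both types 4 rose (2.11% of all genes did) and 3 fell (4.02% did), with a median log2 fold of 0.51. Of 12 on RAE2.0 alone 6 were at least 4-fold higher and 2 lower, where 2.02% and 3.48% of the 8411 genes were. Col3a1, the fibrillar collagen III chain, went from 6684 and 21808 to 39993 and 78964 (4.65-fold, adjusted p = 0.0234). Omd, a keratan sulfate proteoglycan of bone and connective tissue, went from 146 and the floor to 1457 and 8564 (at least 22.6-fold, adjusted p = 0.0191), and on RAE2.0 alone Ogn, a related small proteoglycan, went from 241 to 13225. Against these, Postn, periostin, had 14838 and 56582 in OEC Ep and the floor and 394 in OEC Lp (at least 129-fold, adjusted p = 0.00469). Thy1 fell at least 7.47-fold, and S100a4, used as a fibroblast marker, went from 26113 and 41223 to 7444 and 6791. Fbln2, a fibulin of basement membranes, went from 47455 to 288 on RAE2.0 alone. Dcn, Col1a1 and Pdgfra had log2 folds of 0.24, -1.20 and -0.07 and were not called. The summed signal of the list was 123794 and 125525 on U34A and 237702 and 188237 on RAE2.0 in OEC Ep and OEC Lp, so the list as a sum did not move one way on both types.

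Tnnt2, cardiac troponin T, had the largest fitted rise of a called gene: from the floor and 194 in OEC Ep to 4921 and 17776 in OEC Lp (at least 59.3-fold, log2 fold 5.89 ± 0.502, adjusted p = 0.00676). It was the 1 gene called of 3 striated muscle genes on both types, and none of 9 on RAE2.0 alone was 4-fold apart, with log2 ratios of 0.00 for Myl3, 0.95 for Myog and 1.87 for Tnnc1. Of 13 smooth muscle and pericyte genes 2 fell, Acta2 (log2 fold -2.53) and Cnn1 (log2 fold -1.91), and Tagln was split, with 9335 and 8153 on U34A and 16373 and the floor on RAE2.0. Of 7 epithelial genes 2 rose, Tspan8 and Spint2, and on RAE2.0 alone Pkp1, a desmosomal plakophilin and the genomic neighbour of Tnnt2, went from 1103 to 7575 and Cdh1, E-cadherin, from the floor to 1071. Of 10 astrocyte genes 2 rose, the connexins named above, and 3 fell, S100b, Fabp7 and Aldoc. Of 8 oligodendrocyte genes 3 fell, and none of 4 endothelial genes was called. Over all genes 2.11% rose and 4.02% fell.

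**Figure D4:**
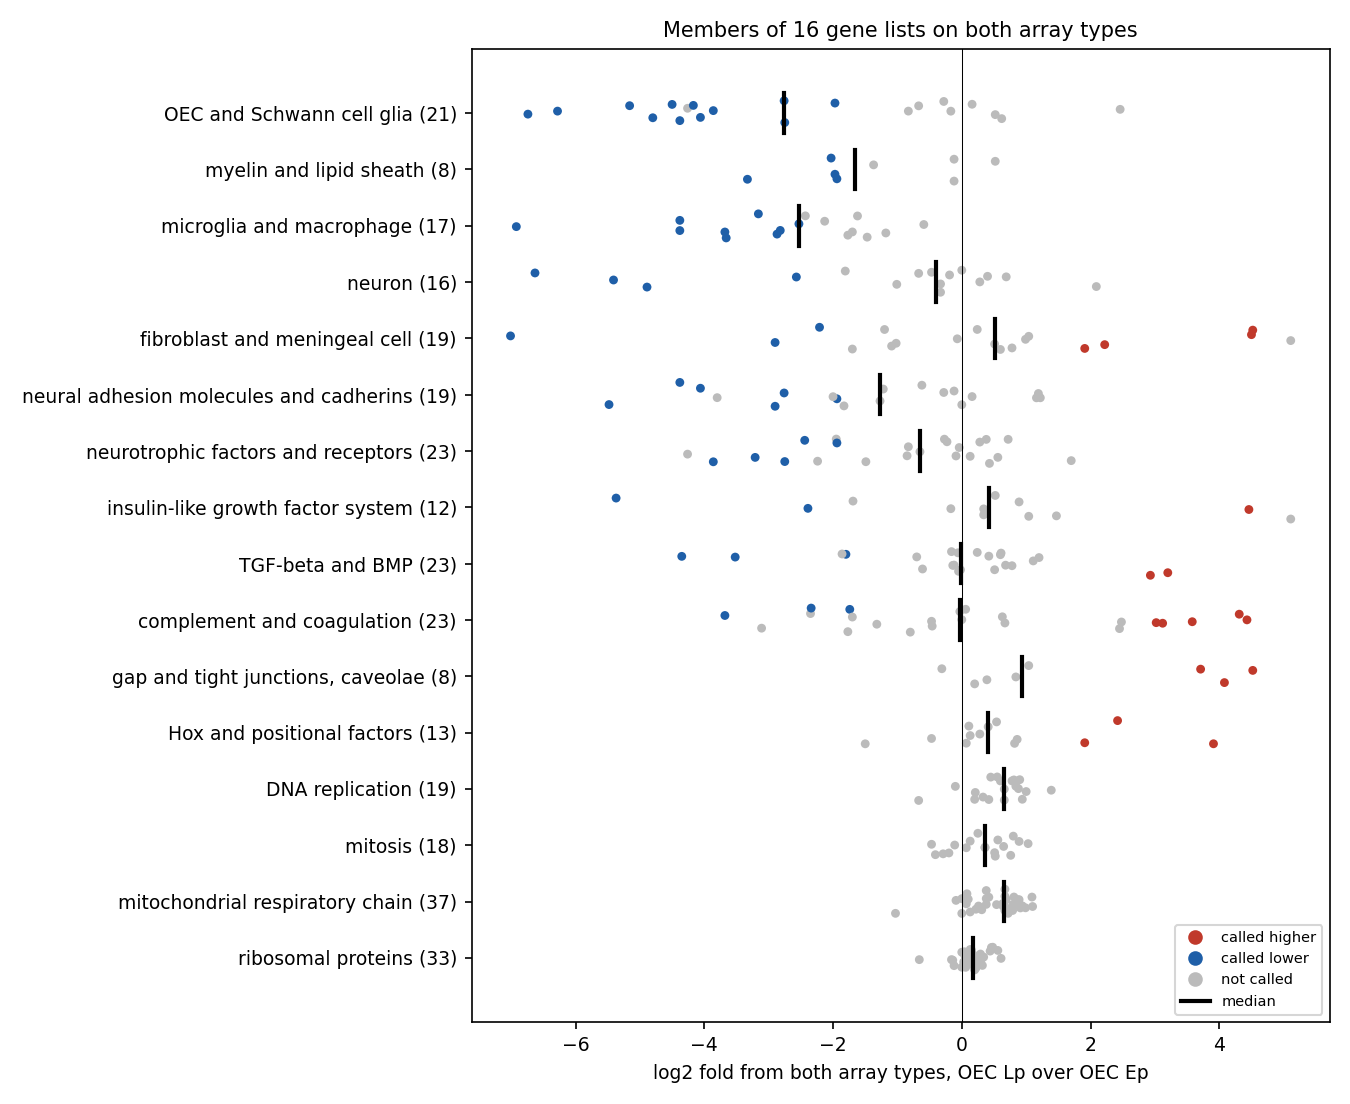
Log2 fold of OEC Lp over OEC Ep from both array types (horizontal axis) for each member of 16 gene lists, with the number of members in parentheses; red and blue points were called higher and lower by limma, grey points were not, and the bar is the median. The glial and microglial lists have only blue calls, junction and positional lists only red ones, and the replication, mitosis, respiratory and ribosomal lists none. Over all genes 2.11% were called higher and 4.02% lower.

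In the insulin-like growth factor system the genes called were all binding proteins. Of 12 members 1 rose and 2 fell, where 2.11% of all genes rose and 4.02% fell. Igfbp6, which prefers IGF-II, went from 615 and 205 to 11949 and 5107 (log2 fold 4.46 ± 0.437, adjusted p = 0.00912). Igfbp5, which binds matrix as well as the ligands, went from 4274 and 17356 to the floor and 336 (at least 41.5-fold, adjusted p = 0.00912), and Igfbp3, the main carrier in blood, fell at least 5.23-fold. Igfbp2, a binding protein of fetal tissues and the genomic neighbour of Igfbp5, was at 152 on U34A and 193 on RAE2.0 in OEC Ep and at 4675 and 7504 in OEC Lp. All 3 of its U34A probe sets were higher in OEC Lp, from 36 to 7116, from 52 to 5872 and from 215 to 2445. It missed the threshold (log2 fold 5.11 ± 1.04, adjusted p = 0.0529), while the TEG3 arrays that enter the fit differed between the types, the floor on U34A and 3083 on RAE2.0. With the 4 OEC arrays alone it passed (adjusted p = 0.0347), and its adjusted p ran from 0.0245 to 0.466 over 14 alternatives. The ligands Igf1 and Igf2 had log2 folds of -1.69 and 1.04, and the receptors Igf1r and Igf2r of 0.34 and 1.47, none of them called. On RAE2.0 alone Igfbp7 went from 56943 to 11985, and Htra1, a protease that cleaves binding proteins, from 10132 to 271.

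In the BMP and TGF-beta family 2 of 23 members rose and 3 fell, where 2.11% of all genes rose and 4.02% fell. Bmp4, a ligand of mesenchymal and dorsal fates, rose at least 9.19-fold (the floor and 247 to 518 and 5170, adjusted p = 0.0491), and the type with the larger ratio was RAE2.0. Nbl1, an antagonist that binds BMPs outside the cell, went from 431 and 635 to 2922 and 5444 (7.62-fold, adjusted p = 0.0108). Fst, follistatin, an activin binder, fell at least 11.4-fold, Ltbp1, which holds latent TGF-beta in the matrix, at least 20.4-fold, and Tgfb3 at least 3.48-fold. Tgfb1, Bmp7 and the receptor genes Tgfbr1 and Bmpr1a were not called, with log2 folds from -0.14 to 0.78. On RAE2.0 alone Grem1, another BMP antagonist, went from 4791 to the floor, while the antagonist Chrd (204 to 1043), the ligand Bmp5 (the floor to 959) and the inhibitory Smad7 (221 to 997) were higher. The ligand subunit Inhba had a log2 fold of -1.86 (adjusted p = 0.0712). Of 24 members on RAE2.0 alone 4 were at least 4-fold higher and 3 lower, where 2.02% and 3.48% of the 8411 genes were.

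In the Wnt pathway the secreted Frizzled-related protein Sfrp4 was the 1 gene called of 7 on both types, where 6.13% of all genes were. It went from 331 and 326 to 1494 and 3837 (7.29-fold, limma adjusted p = 0.0214). On RAE2.0 alone the ligand Wnt16 went from the floor to 3001 and the target Ccn4 from 247 to 2240. The receptor Fzd8 went from 2701 to the floor, the inhibitors Sfrp1 and Nkd2 from 2360 to 216 and from 4647 to 421, and the nuclear factor Lef1 from 2149 to 422. These 6 were all that passed 4-fold of 29 genes, where 5.5% of the 8411 genes of that array alone did.

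Complement and coagulation genes went both ways. Of 23 on both types 5 rose and 3 fell, where 2.11% of all genes rose and 4.02% fell. The risers were regulators and a protease of the lectin pathway: Serping1, the C1 inhibitor (265 and 854 to 2363 and 13697, log2 fold 3.58, adjusted p = 0.0234), Clu, clusterin (1768 and 536 to 69702 and 6300, at least 21.5-fold, adjusted p = 0.0107), Thbd, thrombomodulin (at least 8.71-fold), Tfpi, the tissue factor pathway inhibitor (8.11-fold), and Masp1, the lectin pathway protease (292 and 218 to 4882 and 5168, at least 19.9-fold). The genes that fell were C1qb and the plasminogen activators Plau (at least 5.07-fold) and Plat (3.33-fold). C1r and C1s, the proteases of the classical pathway, were much higher on U34A (591 to 11852 and 335 to 6553) and little on RAE2.0 (3778 to 5864 and 5923 to 9026) and were not called (adjusted p = 0.188 and 0.21).

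Secreted trophic factors and their receptors were lower or not called, and none of 23 rose. Over all genes 2.11% rose and 4.02% fell. Cntf, a factor for motor neurons that Schwann cells and OECs make, went from 1776 and 5003 to 239 and 432 (9.28-fold, log2 fold -3.21 ± 0.322, adjusted p = 0.00912). Gfra1, the receptor chain for GDNF, went from 2282 and 3564 to 197 on each type (at least 14.5-fold, adjusted p = 0.00618). Ptprz1, the receptor phosphatase for pleiotrophin, fell at least 5.41-fold and Hbegf, an EGF receptor ligand, 3.84-fold; with Erbb3, these were the 5 called. Pleiotrophin itself, Ptn, had a log2 fold of -1.49 (adjusted p = 0.117), and the neurotrophin Bdnf one of -0.65. On RAE2.0 alone Mdk, midkine, went from 2366 to 430 and the EGF receptor ligand Btc from 1540 to the floor.

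Adhesion molecules by which glia hold axons fell in part. Of 19 neural adhesion genes 6 fell (4.02% of all genes did) and none rose (2.11% did), with a median log2 fold of -1.27. L1cam, a partner of axons and Schwann cells, went from 5032 and 3253 to 348 and the floor (at least 16.7-fold, adjusted p = 0.00879), Ncam1 from 1591 and 1477 to 305 and the floor (at least 6.77-fold), and Cdh2, N-cadherin, from 1185 and 7941 to the floors (at least 20.9-fold). Cd200, a ligand that restrains macrophages, fell 44.7-fold; Thy1 and Cd9 were the others. Outside the list Reln, an extracellular guide of migrating neurons, fell at least 39.9-fold. On RAE2.0 alone Cdh6, Cdh13 and Cdh1 were at least 4-fold higher while Mcam (12453 to the floor), Pcdh20 and Pcdh17 were at least 4-fold lower. Integrin chains split as well: Itga1, a collagen receptor chain, fell 25.5-fold and Itga7, a laminin receptor chain, at least 5.34-fold, while Itgb4, the chain of hemidesmosomes, went from 288 and 257 to 1828 and 6351 (12.5-fold, adjusted p = 0.0191). Itgb1 and Itgav were not called, with log2 folds of -0.48 and -0.09.

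In the matrix, Lox, which crosslinks collagen, rose 6.66-fold (1063 and 3616 to 5321 and 32044, adjusted p = 0.0236) and Pcolce, an enhancer of procollagen processing, 10.3-fold, beside Col3a1. The fibril-associated chains Col12a1 and Col11a1 fell 8.67-fold and at least 6.82-fold. On RAE2.0 alone Col8a2, a short-chain collagen of basement membranes, went from 394 to 13493. There 5 of 18 genes of collagens and their processing were at least 4-fold lower (3.48% of the 8411 genes were), led by Col5a3 (5399 to 187). Tnc, tenascin C, went from 3160 and 50939 to 194 and 2998 and Efemp1, a fibulin, from 549 and 767 to 7124 and 4358. Fn1, fibronectin, had a log2 fold of 1.25 that was not called (adjusted p = 0.101). Timp2, which blocks metalloproteinases, went from 2940 and 2253 to 16238 and 10645 (5.11-fold, adjusted p = 0.0162).

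The list of chemokines and cytokines also holds prostaglandin enzymes. Of its 30 genes on both types, 4 fell (4.02% of all genes did), Il33, Pf4, Cxcl13 and the prostaglandin enzyme gene Ptgs1. The 1 that rose (2.11% of all genes did) was Cx3cl1, fractalkine, from 163 and the floor to 2392 and 1303 (at least 10.7-fold, adjusted p = 0.0109). Il33, an alarmin held in the nuclei of glia and stromal cells, went from 1530 and 15343 to the floors. On RAE2.0 alone 8 of 18 were at least 4-fold lower, where 3.48% of the 8411 genes were, and none was 4-fold higher. Among the 8, which include the prostaglandin enzyme gene Ptges, Cxcl1 went from 41304 to 1514, Ccl7 from 21949 to 308 and Cxcl2 from 5122 to the floor. Such falls rest on RAE2.0 alone, and for the chemokines Ccl2 and Ccl20 a fall on RAE2.0 stood against a rise on U34A, as given above. Il1b, the cytokine that induces many of these, had 248 on U34A and 7336 on RAE2.0 in OEC Ep and the floor on both in OEC Lp, and was not called (log2 fold -3.20, adjusted p = 0.207). Ccl3 had the same pattern, 217 and 7894 in OEC Ep. Pf4 and Ccl6 are also macrophage markers, and the summed signal of that list given above was lower in OEC Lp on both types; its part in these values was not tested.

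**Figure D5:**
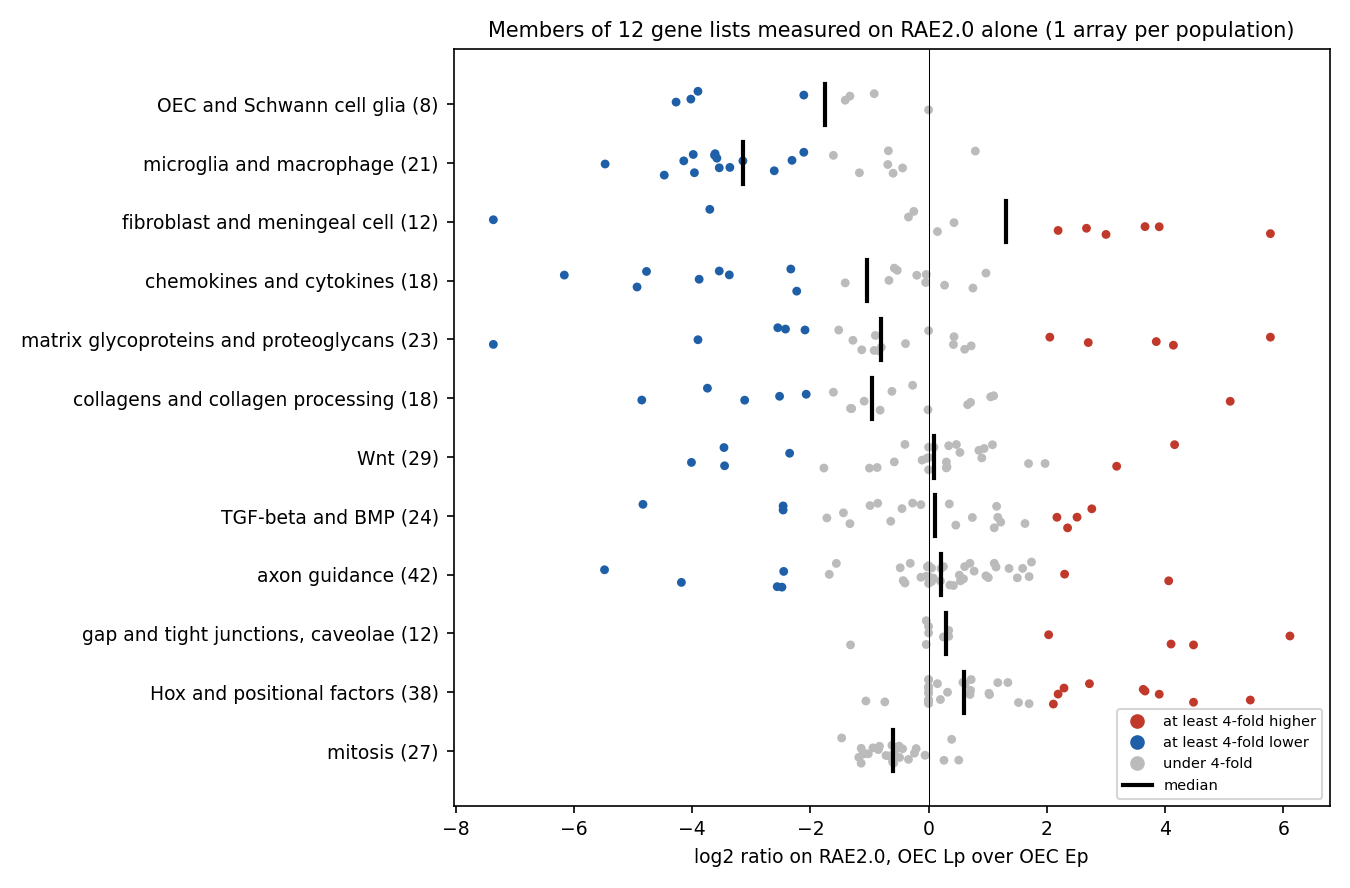
Log2 ratio of OEC Lp over OEC Ep on RAE2.0 (horizontal axis) for members of 12 lists that were measured on that array alone, 1 array per population and therefore no test; red and blue points passed 4-fold and the bar is the median. The microglial list has 14 of 21 members past 4-fold on the lower side, and the positional list 9 of 38 on the higher side.

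No gene of the cell cycle lists measured on both types was called, where 6.13% of all genes were. At that share lists this short hold few calls. None of 19 DNA replication genes and none of 18 mitosis genes on both types was called, with median log2 folds of 0.66 and 0.36. The types differed for the mitosis list, with a median of 1.06 on U34A and -0.39 on RAE2.0, and of 27 further mitosis genes on RAE2.0 alone none was 4-fold apart (median -0.61). Ccnb1, cyclin B1, shows this split, with 744 and 2498 on U34A and 3491 and 1724 on RAE2.0. Mki67, the proliferation antigen, had 4428 in OEC Ep and 2896 in OEC Lp on RAE2.0 alone. Of 14 cyclin, CDK inhibitor and Rb family genes none was called. Cdkn1a, an inhibitor of CDKs, had 1488 and 1008 in OEC Ep and 439 and 421 in OEC Lp (log2 fold -1.51 ± 0.307, adjusted p = 0.0529; from 0.0173 to 0.757 over 15 alternatives). Cdkn2b, a related inhibitor, went down on U34A (389 to 249) and up on RAE2.0 (599 to 1535). Cdkn2a, a tumour suppressor locus, was measured on RAE2.0 alone, where it went from 528 to 5948, with 9257 in TEG3. It was the 1 gene of 20 in its list past 4-fold, where 5.5% of the 8411 genes were.

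Over all genes 6.13% were called. None of 33 ribosomal protein genes was called and their log2 folds ran from -0.66 to 0.61, with a median of 0.17. None of 37 respiratory chain genes was called, but their median was 0.65, with 0.67 on U34A and 0.45 on RAE2.0, and 33 of them had a log2 fold above 0. None of 21 cholesterol and fatty acid synthesis genes was called (median 0.41); on RAE2.0 alone Elovl2, which elongates polyunsaturated fatty acids, went from 10105 to the floor and Fads1, a desaturase, from 17889 to 3158. Forskolin, which can turn on the cyclic AMP response, was in all cultures, so its effect was not measured. Of 34 genes of that response 1 fell (4.02% of all genes did), Atf3 (6.51-fold), and none rose (2.11% of all genes did). Of 43 antioxidant and detoxification genes, where 2.11% of all genes rose and 4.02% fell, 4 rose, among them Gstm2 (11.2-fold) and Gclc (at least 5.42-fold), and 3 fell, Gpx3 (3817 and 6917 to 204 and the floor), Sod3 and Aldh1a1.

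Some genes that lie next to each other had ratios in the same direction. In the gene order of the rat assembly GRCr8, 6967 neighbouring pairs of protein-coding genes had both members measured on RAE2.0, where 6.43% of all genes were at least 4-fold apart. In 62 pairs both members were at least 4-fold apart, 54 of them in the same direction, 20 higher and 34 lower in OEC Lp, and 8 in opposite directions. The proteoglycan genes Ogn, Omd and Aspn are consecutive and had log2 ratios on RAE2.0 of 5.78, 5.67 and 3.85. Cav2 and Cav1 had 4.10 and 4.04, Zic1 and Zic4 had 2.19 and 2.97, and Scara3 and Clu had 3.49 and 3.56. Among the falls, Nefl and Nefm had -5.24 and -6.91, Calca and Calcb -3.95 and -7.81, Cxcl2 and Cxcl1 -4.93 and -4.77, and C1qb, C1qc and C1qa -3.18, -2.65 and -4.14. Several of these pairs are paralogs, and binding of their probes to each other's transcripts was not tested. Igfbp2 and Igfbp5 are also neighbours and went opposite ways, 5.28 and -5.69, and so did Prrx2 (3.63) and Ptges (-2.33).

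The upstream sequences of 4 called genes are shown: Calca and Npy as peptide genes that fell, Ctss as a macrophage gene that fell, and Tnnt2 as the largest fitted rise. Each is the 250 bases before the annotated start in RefSeq on GRCr8, 5′ to 3′ on the gene's strand, with matches on either strand to 6 motifs in capitals.
Calca, chr1:178317530-178317779 (- strand): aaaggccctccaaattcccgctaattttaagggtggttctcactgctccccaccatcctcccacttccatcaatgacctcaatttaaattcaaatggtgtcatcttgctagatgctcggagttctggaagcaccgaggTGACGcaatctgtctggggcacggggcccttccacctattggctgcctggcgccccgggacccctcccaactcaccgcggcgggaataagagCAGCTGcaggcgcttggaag
Npy, chr4:80211861-80212110 (+ strand): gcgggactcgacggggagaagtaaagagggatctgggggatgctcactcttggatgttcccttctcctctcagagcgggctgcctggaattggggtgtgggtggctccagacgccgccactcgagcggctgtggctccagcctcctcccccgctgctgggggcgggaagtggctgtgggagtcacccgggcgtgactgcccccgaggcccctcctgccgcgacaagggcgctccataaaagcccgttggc
Ctss, chr2:185775146-185775395 (+ strand): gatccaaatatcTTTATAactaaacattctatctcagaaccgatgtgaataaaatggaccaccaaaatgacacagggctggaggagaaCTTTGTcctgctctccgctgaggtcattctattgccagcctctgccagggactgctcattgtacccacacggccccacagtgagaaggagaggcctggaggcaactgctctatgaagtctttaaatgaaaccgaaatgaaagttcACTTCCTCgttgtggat
Tnnt2, chr13:49818873-49819122 (+ strand): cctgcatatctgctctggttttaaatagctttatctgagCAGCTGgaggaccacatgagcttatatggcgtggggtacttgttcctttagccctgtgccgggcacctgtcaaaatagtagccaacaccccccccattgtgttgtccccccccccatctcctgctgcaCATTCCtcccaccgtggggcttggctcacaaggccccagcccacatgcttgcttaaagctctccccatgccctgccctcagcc
The motifs were the TATA box (TATAAA), the core of cyclic AMP response elements (TGACG), the TEAD site (GGAATG), the PU.1 site of myeloid cells (GAGGAAGT), the SOX core (ACAAAG) and an E box of helix-loop-helix factors (CAGCTG), chosen after the calls were known. Npy has no match, nor have S100b and Omd. In Calca the capitals mark a response element core and an E box, in Ctss a reversed TATA box, a reversed SOX core and a reversed PU.1 site, and in Tnnt2 an E box and a reversed TEAD site. Of the 2608 tested genes with such a sequence, 2.30% had the PU.1 letters, as did 6 of 87 genes that fell (Cd53, Ctsc, Ctss, Ndn, Ptgs1 and Selenop) and 1 of 53 that rose. The TEAD letters were in 10.4% of tested genes, in 12 of 53 that rose and in 8 of 87 that fell. The SOX core was in 288 of the 2608, in 11 of 87 that fell and 8 of 53 that rose, the E box in 11.8%, 17 and 8, the TATA box in 8.21%, 15 and 5, and the response element core in 29.4%, 19 and 7. On RAE2.0 alone the TEAD letters were in 13 of 133 genes at least 4-fold higher (9.77%) and 23 of 232 at least 4-fold lower (9.91%). There the PU.1 letters were in 1 and 8 of these genes, the SOX core in 10 and 37, the E box in 12 and 40, the TATA box in 6 and 18 and the response element core in 30 and 41. A match describes the letters of this window and is no evidence that a factor binds there.

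The comparisons with OEC Ep and with TEG3 share the OEC Lp arrays, so values of single genes are given side by side. Tnnt2, Serping1, Efemp1 and Tfpi were higher in OEC Lp than in TEG3 too, with log2 folds of 5.77, 5.28, 5.25 and 4.97 (limma adjusted p from 0.0232 to 0.0333). Fgfr1, a fibroblast growth factor receptor, was at 4086 and 7771 in OEC Lp against 202 and 437 in TEG3 (log2 fold 4.25, adjusted p = 0.0232), and its rise from OEC Ep, a log2 fold of 1.61, was not called (adjusted p = 0.0809). Uchl1 and Ltbp1 were lower in OEC Lp than in TEG3, with log2 folds of -4.10 and -4.75 (adjusted p = 0.0232 and 0.0296). For Sox10, S100b, Calca and Nefm, OEC Lp and TEG3 were both at or near the floor, so no fold between them is given.

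On RAE2.0 alone 463 of the 8411 genes were at least 4-fold apart (5.50%), 170 higher and 293 lower in OEC Lp, and 22 and 47 were at least 16-fold apart; these rest on 1 array per population and have no test. Of 595 genes measured on U34A alone, 5 were at least 4-fold higher (0.84%) and 2 lower (0.336%). For 97 of the 463 on RAE2.0 alone more than 1 probe set was measured, and in 95 of them every probe set had the same direction. Among genes with an established symbol, the highest ratios, after Cldn11, Ogn and Foxp2, belonged to Col8a2 (34.2-fold), Hspb8, a small heat shock protein gene (29.7-fold), and Colec12, a scavenger receptor gene (1090 to 28894). With signals raised to the floor, so that several are bounds and their order could differ, the lowest belonged to Fbln2, S1pr3, a sphingosine phosphate receptor gene (20546 to the floor), Adgre1, Rassf4 (27033 to 320) and Fcrl2 (13606 to the floor). Sema6d, a semaphorin gene, went from 7514 to the floor and Sema3b from 3049 to the floor, while Sema3d went from 208 to 3458. Of 42 axon guidance genes 2 were at least 4-fold higher and 5 lower, where 2.02% and 3.48% of the 8411 genes were.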

How the data were processed

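The values are MAS5 signal intensity values per probe set, as deposited by the authors, without detection calls; MAS5 is named per the submitters' processing notes, and other settings are not given in the sources used here. The arrays had 8799 (U34A) and 31099 (RAE2.0) probe sets, of which 7018 and 20832 had 1 gene symbol in GEO's platform annotation, 308 and 436 several and 1473 and 9831 none.

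Each array was scaled to a common 2% trimmed mean within its type. Signals under the floor (the 40th percentile of the type) were set to it, which shrinks ratios of dim genes. Control probe sets, probe sets above the floor on no array, and those without exactly 1 symbol were left out. A gene above the floor in only 1 population of the comparison can differ in only 1 direction. The log2 signals of a gene's probe sets were averaged, giving 3726 genes on U34A and 11542 on RAE2.0. In R 4.3.3, limma 3.58.1 (lmFit, eBayes) was fitted on the 6 arrays with population and array type as terms (2 residual and 3.56 prior degrees of freedom); p-values were adjusted by Benjamini-Hochberg over 3131 genes, threshold 0.05. The replicate numbers are the array types, which pair the arrays by construction. RAE2.0 ratios alone have no test. The fit was tested on simulated data.

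The genes named were the 30 largest changes each way, in each list the 8 of lowest p, every called list member, the 25 highest and lowest ratios on RAE2.0 alone, list members past 4-fold there, and a fixed set; other genes named were chosen after their values were seen. The comparison, the 49 gene lists and these rules were chosen with earlier results of these data known. Some genes of the fixed set are not reported here.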

Additional observations from a re-analysis of the deposited data

Results flagged for a closer look

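Probe sets without exactly 1 gene symbol were left out of the comparison, and many of them differed between the populations. On U34A, of 1171 such probe sets above the floor, 26 were at least 4-fold higher in OEC Lp and 43 at least 4-fold lower, with ratios of up to 28.6-fold and 64.0-fold. On RAE2.0, of 5857, 123 were at least 4-fold higher and 168 at least 4-fold lower, with ratios of up to 83.7-fold and 193-fold. These are ratios of 1 array per population and have no test.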

How the results depend on the processing

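Genes called in an alternative kept their sign. The 192 changed genes in OEC Lp against OEC Ep on both array types came to 66 without a floor (15 higher, 51 lower; 56 shared), 1 without the filter, 77 when genes had to be above the floor on every array, 41 with the 4 OEC arrays alone (10 higher, 31 lower), 0 with no replicate block (193 genes at an unadjusted p under 0.05 in limma) and 0 to 41 when 1 array was left out; with a floor at the 60th percentile they came to 164, with quantile scaling to 194, with the brightest probe set to 213 and without probe sets that can bind related sequences, a choice made after the data were seen, to 194. The 342 genes at least 2-fold the same way came to 225 with the higher floor and 146 above the floor on every array. The 463 genes on RAE2.0 alone past 4-fold came to 1033 without a floor (443 higher, 590 lower), 248 with the higher floor and 264 above the floor on every array. In the agreement of the array types, the share with the same direction, 91.8% from 4-fold on, was 84.8% without a floor and 86.1% without the filter. The median log2 fold of OEC and Schwann cell glia was -0.26 over the 4 members above the floor on every array, a rule that by construction leaves out members that fell to it, and the median log2 fold of microglia and macrophage was then -1.18 over 3. Of the list medians 65 changed sign, in 26 of 49 lists. The median log2 fold of all genes ran from 0.00 to 0.16. Of 4921 values of single genes, 3824 stayed on the same side of the threshold, 1065 fell below it and 32 passed it. Signals near the floor limit the comparison: 130 calls have only a lower bound for their fold.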

Other observations

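Some transcripts of the sex chromosomes differed between the populations on RAE2.0. Eif2s3y, a gene of the Y chromosome, went from 2115 in OEC Ep to 30 in OEC Lp, beside 4828 in TEG3. Uty, another gene of that chromosome, did not follow it: its probe set above the floor went from 1552 to 2331, beside 1981 in TEG3. The probe sets for Xist, the RNA that coats the inactive X chromosome, had 4769, 2083, 1423 and 790 in OEC Ep, 20513, 3549, 2274 and 1549 in OEC Lp, and 28, 104, 2 and 21 in TEG3. The labels used here do not give the sex of the animals, and the part of sex in the results was not tested.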
